A study of Mus musculus with 4 samples.

Results

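Nicotinamide adenine dinucleotide (NAD) is both a redox carrier and the substrate from which poly(ADP-ribose) polymerases build poly(ADP-ribose). The genes described here are 10 genes of NAD synthesis and consumption, *Nampt*, *Nmnat1*, *Nmnat2*, *Nmnat3*, *Nadsyn1*, *Nadk*, *Nnt*, *Sirt1*, *Cd38* and *Parg*, taken by name from an expression array together with every probe that carries one of those names. They had 14 probes, of which 11 passed a filter on dim signals, and all 10 genes were among the 19688 genes that could be tested.

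The cells were neural stem/progenitor cells (NSPCs) prepared from Slc:ICR mouse embryos at embryonic day 13.5. They were grown in a medium for neurospheres, free-floating clusters of proliferating progenitors, with EGF and FGF-basic. The paper used suspension and coated monolayer cultures and does not state which gave the array RNA. The cells were of 2 genotypes, wild-type and *Trp53*-/-, the latter lacking the tumour suppressor p53 and descending from a line of *Trp53*-heterozygous mice. The labels give Slc:ICR as the strain of both genotypes, and how the *Trp53* line was bred onto it is not given in the sources used here. Cells of each genotype were either left untreated or given 20 μM PJ34, an inhibitor of poly(ADP-ribose) polymerases, for a time that is not given in the sources used here. At this dose the paper found few neurospheres in wild-type cells and a substantial number in *Trp53*-/- cells. On every array the RNA of PJ34-treated cells carried the dye Cy5 and that of untreated cells of the same genotype the dye Cy3. There were 2 arrays per genotype from independently prepared RNA, which the study's methods call biological replicates, so n = 2 for each genotype.

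Cells make NAD mainly by salvage. *Nampt* encodes the rate-limiting enzyme, which joins nicotinamide to a phosphoribosyl group to give nicotinamide mononucleotide, and the nicotinamide is what NAD-consuming enzymes release. The adenylyl transferases encoded by *Nmnat1* (nucleus), *Nmnat2* (Golgi and cytosol, abundant in axons) and *Nmnat3* (mitochondria) then complete NAD. *Nadsyn1* encodes the synthetase that amidates the acid form of NAD in the routes from nicotinic acid and tryptophan. *Nadk* encodes the kinase that makes NADP from NAD, and *Nnt* the transhydrogenase of the inner mitochondrial membrane that makes NADPH at the expense of NADH. Among the consumers, *Sirt1* encodes an NAD-dependent deacetylase and *Cd38* a membrane NAD glycohydrolase. *Parg* encodes the glycohydrolase that takes apart the poly(ADP-ribose) chains which PJ34 keeps from being made.

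Each gene is read from a 60-base probe whose position the files give on the build mm9. The probes lie on chr12:33535475-33535534 for *Nampt*, chr4:148842959-148843018 for *Nmnat1*, chr1:154964383-154964442 for *Nmnat2*, chr9:98311751-98311810 for *Nmnat3* and chr7:150981777-150981836 for *Nadsyn1*. Those of the others lie on chr4:154965045-154965104 for *Nadk*, chr13:120124335-120124394 for *Nnt*, chr10:62781827-62781886 for *Sirt1*, chr5:44302865-44302924 for *Cd38* and chr14:33110162-33110221 for *Parg*. Which exon or untranslated region each probe falls in was not analysed here. All 10 of these probes were well above background in all 8 channels.

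The promoters of 9 of the 10 genes were found among the RefSeq promoters of GRCm38.p6, and 3 are shown because the genes' array values stand out below: *Nmnat1* for its response to PJ34, *Nampt* for its unequal values in the genotypes, and *Cd38* for its level in untreated cells. Each line gives the 250 bases before the annotated start, 5′ to 3′ on the gene's strand, with the CpG dinucleotides in capitals. They lie on chr4:149485211-149485460 (minus strand, one of the gene's annotated starts), chr12:32820085-32820334 (plus strand) and chr5:43868559-43868808 (plus strand).
Nmnat1: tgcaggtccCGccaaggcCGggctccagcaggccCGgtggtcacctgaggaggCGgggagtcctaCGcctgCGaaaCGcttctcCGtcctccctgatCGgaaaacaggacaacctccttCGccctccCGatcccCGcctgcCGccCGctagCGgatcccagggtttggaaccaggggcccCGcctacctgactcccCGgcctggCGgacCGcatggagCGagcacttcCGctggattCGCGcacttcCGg
Nampt: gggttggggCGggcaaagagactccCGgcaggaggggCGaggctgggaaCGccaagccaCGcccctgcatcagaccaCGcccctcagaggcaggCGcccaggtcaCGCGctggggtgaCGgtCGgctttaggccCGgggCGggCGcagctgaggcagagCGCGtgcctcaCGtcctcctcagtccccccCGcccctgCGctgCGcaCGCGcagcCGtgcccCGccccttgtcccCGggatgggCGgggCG
Cd38: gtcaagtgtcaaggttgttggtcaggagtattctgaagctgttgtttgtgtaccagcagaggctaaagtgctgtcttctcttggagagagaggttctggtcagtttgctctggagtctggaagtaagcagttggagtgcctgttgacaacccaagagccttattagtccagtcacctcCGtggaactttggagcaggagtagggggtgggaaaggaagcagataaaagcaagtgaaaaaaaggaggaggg

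The windows differed in CpG content. *Nmnat1* had 24 CpGs and *Nampt* 27, against a median of 6 over 32851 promoters, while *Cd38* had 1. Only 7.87% of the promoters had fewer CpGs than that of *Cd38*, and 98.4% had fewer than that of *Sirt1*, which had 39. The 9 genes have 12 such windows, since *Nmnat1*, *Nadk* and *Parg* have more than 1 annotated start. The E-box CACGTG, searched like the other motifs on both strands, was in 2 of the 12 windows (*Nadk* and *Sirt1*) and in 6.02% of all promoters. The GC box GGGCGG was in 7 of the 12, in *Nmnat1*, *Nampt*, *Nmnat3*, *Nadsyn1*, *Nadk* and *Sirt1*, and in 32.7% of all. The CCAAT box CCAAT was in 2 windows, of *Nmnat1* and *Nadk*, and in 33.8% of all. The p53 consensus decamer was in 0 of the 12 windows and in 7.13% of all, TATAAA in 0 and in 12.4%, and the palindromic NRF1 motif in 0 and in 0.782%. These matches describe letters in short windows only.

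Before the results, 3 facts of the whole series bear on them. The signal of the *Trp53* probe in the control channel was 8.29 and 8.50 on the log2 scale in wild-type and 7.56 and 7.82 in *Trp53*-/-, well above background in all 8 channels, and whether this probe lies in the deleted part of the gene was not analysed here. All 10 markers of neural stem or progenitor cells were measured, with mean control levels between 11.31 and 11.41 on the 4 arrays, and of these *Msi1* passed as lower in untreated *Trp53*-/- cells (-0.96, *q* = 0.0288). On the array of *Trp53*-/- replicate 2 the Y-linked genes *Eif2s3y* and *Ddx3y* had log2 ratios of 4.22 and 3.12, against -0.20 on that of replicate 1. The X-linked *Xist* had -3.08 on the array of replicate 2, against 0.56 on that of replicate 1. The treated and untreated cells of the replicate 2 array thus stood apart in genes of both sex chromosomes. An effect of PJ34 and the sex makeup of the cultures cannot be told apart on that array.

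The comparison of treated with untreated cells asks how inhibition of poly(ADP-ribose) synthesis changed the transcripts of NAD metabolism. *Nmnat1* was the only member that rose in both genotypes, by 1.58-fold in wild-type and 1.63-fold in *Trp53*-/-. In wild-type NSPCs *Nmnat2* and *Nnt* also rose, by about 1.2-fold, and *Nampt*, *Nadk* and *Sirt1* fell by 1.2- to 1.3-fold. In *Trp53*-/- NSPCs *Nmnat3* and *Nadsyn1* fell by about 1.2-fold. No member passed the study's criterion of more than 2-fold together with *p* and *q* below 0.05 (*q* being Storey's false discovery rate over all genes) in either genotype, and the calls named here are of *q* and *p* below 0.05 alone, from limma's moderated test.

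In wild-type cells 3 of the 10 genes were higher at *q* below 0.05, where 13.7% of all 19688 genes were, and 3 were lower, where 11.4% were. In *Trp53*-/- cells 1 was higher and 2 were lower, against 12.8% and 10.6% of all genes. With the 2-fold criterion the shares over all genes were 0.503% in wild-type and 0.371% in *Trp53*-/-. The median log2 ratio of the 10 genes was -0.10 in wild-type and -0.12 in *Trp53*-/-, and that of all genes was 0.03 in both. Because the dyes were not swapped, a dye bias of a probe and an effect of PJ34 cannot be told apart within a genotype. Directions are relative to the bulk of genes: when arrays were centred on the median over all probes without loess, the median log2 ratio of the genes tested moved to 0.46 in wild-type and 0.64 in *Trp53*-/-, and relative to that shift 27 of the 30 member values (2 genotypes and their difference) kept their direction. The exceptions were *Nadk* and *Parg* in *Trp53*-/- and *Nnt* in the difference. Sizes changed more than directions. In wild-type, *Nmnat2* was 0.03 and *Nadk* -0.09 relative to that shift, against 0.29 and -0.26 with loess. Others grew, as *Nnt* did in wild-type (0.43 against 0.27).

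**Figure D1:**
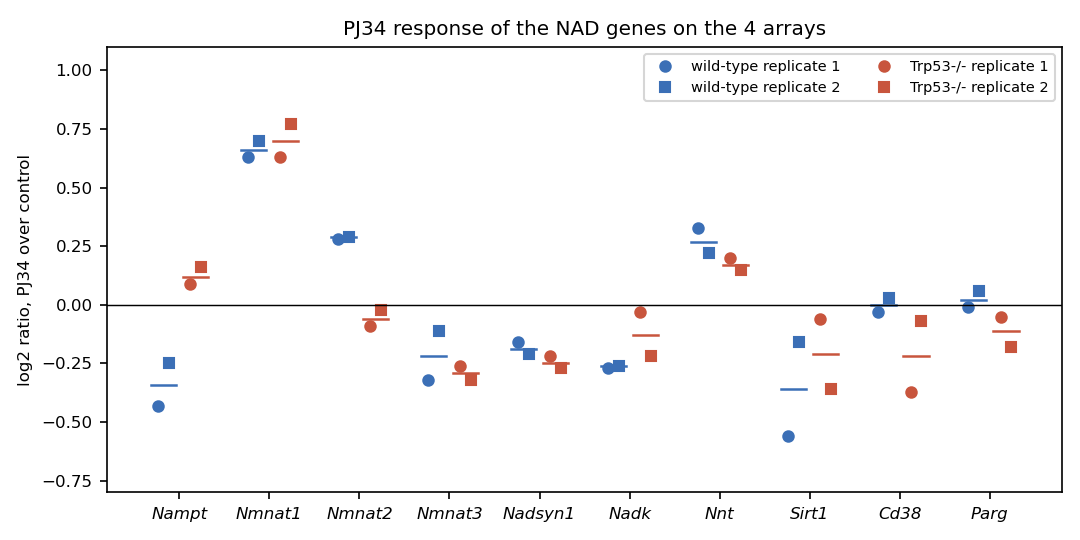
Log2 ratio of PJ34-treated over untreated cells (vertical axis) for the 10 genes, with 1 symbol per array (circles replicate 1, squares replicate 2; blue wild-type, red *Trp53*-/-) and a short line at each genotype's mean. *Nmnat1* lies between 0.63 and 0.77 on all 4 arrays, and *Nampt* lies below 0 on both wild-type arrays and above 0 on both *Trp53*-/- arrays.

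*Nampt*, at the entry of salvage, gave -0.43 and -0.25 on the arrays of wild-type replicates 1 and 2 and 0.09 and 0.16 on those of *Trp53*-/-. The genotypes did not overlap. With 2 arrays per genotype this was also so for *Nmnat2*, *Nadsyn1*, *Nadk*, *Nnt*, *Cd38* and *Parg*, and it was not counted over all genes. The wild-type mean of -0.34 ± 0.13 (SD, n = 2) passed the test (*q* = 0.0147), and the *Trp53*-/- mean of 0.12 ± 0.052 (SD, n = 2) did not (*q* = 0.191). The transcript's log2 level went from 9.30 and 9.27 in untreated wild-type cells to 8.87 and 9.02 with PJ34. In *Trp53*-/- cells it went from 8.93 and 8.78 to 9.02 and 8.94, so that the treated cells of both genotypes lay within the same range. Without wild-type replicate 1 the wild-type value was -0.25 and no longer passed (*q* = 0.179).

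*Nmnat1*, of the nuclear adenylyl transferase, gave 0.63 and 0.70 in wild-type and 0.63 and 0.77 in *Trp53*-/-. All 4 arrays were higher with PJ34, and the genotypes overlapped. The means were 0.66 ± 0.047 (*q* = 0.000544) and 0.70 ± 0.099 (*q* = 0.000726; SD, n = 2 each). Of the 19688 genes, 1.64% had a higher mean ratio than *Nmnat1* in wild-type and 0.513% in *Trp53*-/-. Its uncorrected intensities rose from 466 and 506 in the control channel to 1060 and 1950 in the PJ34 channel of the wild-type arrays, which includes the difference in brightness between the dyes. The call held in each genotype under all 17 alternative settings tried, with log2 values from 0.63 to 1.27 in wild-type and from 0.63 to 1.52 in *Trp53*-/-. The highest values came from median centring, where they were 0.81 and 0.88 relative to the median of all genes. All 17 settings keep PJ34 in Cy5, so none could take out a dye bias of the probe. The 17 settings are also not all separate. For each genotype, leaving out either array of the other genotype repeats the fit to its own arrays alone. Rising in both genotypes was shared with 6.19% of all genes.

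The transcripts of the other adenylyl transferases differed from it in direction or size. *Nmnat2*, of the enzyme known for its role in axon survival, gave 0.28 and 0.29 in wild-type and -0.09 and -0.02 in *Trp53*-/-. The wild-type arrays agreed closely and lay above both others. The wild-type mean was 0.29 ± 0.0074 (SD, n = 2; *q* = 0.0234) and the *Trp53*-/- mean was -0.06 (*q* = 0.343). The wild-type call was lost without either wild-type array (*q* = 0.127 and 0.133). *Nmnat3*, of the mitochondrial enzyme, was below 0 on all 4 arrays, with -0.32 and -0.11 in wild-type and -0.26 and -0.32 in *Trp53*-/-. It passed in *Trp53*-/- (mean -0.29 ± 0.043, SD, n = 2; *q* = 0.0293) and not in wild-type (mean -0.22 ± 0.15; *q* = 0.0692). A further *Nmnat3* probe was well above background in 0 of 8 channels and was not read.

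*Nadsyn1*, of NAD synthetase, was likewise below 0 on all 4 arrays, with -0.16 and -0.21 in wild-type and -0.22 and -0.27 in *Trp53*-/-. The means were -0.19 ± 0.036 (*q* = 0.0868) and -0.25 ± 0.030 (*q* = 0.0423; SD, n = 2 each), so it passed in *Trp53*-/-. Both *Trp53*-/- calls of lower genes ended without either array of that genotype: without replicate 2 *Nmnat3* had -0.26 (*q* = 0.239) and *Nadsyn1* -0.22 (*q* = 0.286), and without replicate 1 they had -0.32 (*q* = 0.112) and -0.27 (*q* = 0.155).

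*Nadk*, of NAD kinase, gave -0.27 and -0.26 in wild-type, a fall by 0.26 ± 0.0093 on average (SD, n = 2; *q* = 0.0388), and -0.03 and -0.22 in *Trp53*-/-, which did not pass (mean -0.13 ± 0.14; *q* = 0.184). The gene's other kept probe, dimmer, gave -0.21 and -0.28 in wild-type and -0.21 and -0.23 in *Trp53*-/-. Both probes were below 0 on every array. *Nnt*, of the transhydrogenase, was above 0 on all 4 arrays, with 0.33 and 0.22 in wild-type (mean 0.27 ± 0.079; *q* = 0.0306) and 0.20 and 0.15 in *Trp53*-/- (mean 0.17 ± 0.034; *q* = 0.104). Its 2 other probes were well above background in 0 and 1 of 8 channels and were not read. The wild-type calls of both genes were lost without either wild-type array, with *q* from 0.0868 to 0.234.

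Among the consumers, *Sirt1* was below 0 on all 4 arrays and had the widest spread between wild-type replicates. It gave -0.56 and -0.16 in wild-type and -0.06 and -0.36 in *Trp53*-/-. The wild-type mean of -0.36 ± 0.28 (SD, n = 2) passed (*q* = 0.0304) and rests on replicate 1, without which it was -0.16 (*q* = 0.353). The *Trp53*-/- mean was -0.21 ± 0.21 (*q* = 0.122). *Cd38* gave -0.03 and 0.03 in wild-type (mean 0.00; *q* = 0.506) and -0.37 and -0.07 in *Trp53*-/- (mean -0.22; *q* = 0.0787). *Parg* gave -0.01 and 0.06 in wild-type and -0.05 and -0.18 in *Trp53*-/-, with means of 0.02 (95% confidence interval -0.18 to 0.22) and -0.11 (-0.31 to 0.09). Neither of the last 2 genes passed in either genotype. Under the 17 alternative settings, adjusted values stayed below 0.05 in 15 for *Nmnat2*, 14 for *Nampt* and 13 for *Sirt1* in wild-type and in 12 for *Nmnat3* in *Trp53*-/-. They did so in 10 for each of *Nadk* and *Nnt* in wild-type and *Nadsyn1* in *Trp53*-/-, where for *Nadk* and *Nadsyn1* 1 of the 10, median centring, had the opposite direction. Median centring also counts among the 15 for *Nmnat2*, whose value of 0.49 there was 0.03 relative to the median of all genes. As said for *Nmnat1*, the 17 settings include repeats of 1 fit.

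Without *Trp53*-/- replicate 2, the array that stood apart in the Y-linked genes, *Nmnat1* had 0.63 in *Trp53*-/- (*q* = 0.0131) and was the only one of the 10 genes to pass there. *Nampt* then had 0.09, *Nmnat2* -0.09, *Nadk* -0.03, *Nnt* 0.20, *Sirt1* -0.06, *Cd38* -0.37 and *Parg* -0.05. The difference between the genotypes was then -0.43 for *Nampt* (*q* = 0.295) and 0.38 for *Nmnat2* (*q* = 0.363).

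Whether the response to PJ34 differed between the genotypes was tested on the wild-type mean less the *Trp53*-/- mean, in which a dye bias shared by the arrays cancels. At *q* below 0.05, 0 of the 10 genes passed in limma's test, against 1.31% of all genes higher and 0.477% lower in wild-type, and 0.477% with the 2-fold criterion. At an unadjusted *p* below 0.05, 2 of the 10 passed, *Nampt* and *Nmnat2*, where 14.5% of all genes did. In limma's test the difference was -0.47 for *Nampt* (95% confidence interval -0.76 to -0.18; *q* = 0.0929) and 0.34 for *Nmnat2* (0.07 to 0.62; *q* = 0.167). For *Nmnat1* it was -0.04, with an interval from -0.32 to 0.25. The intervals of the other 7 genes also included 0, so the calls made in wild-type alone or *Trp53*-/- alone above are not shown to differ between the genotypes.

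**Figure D2:**
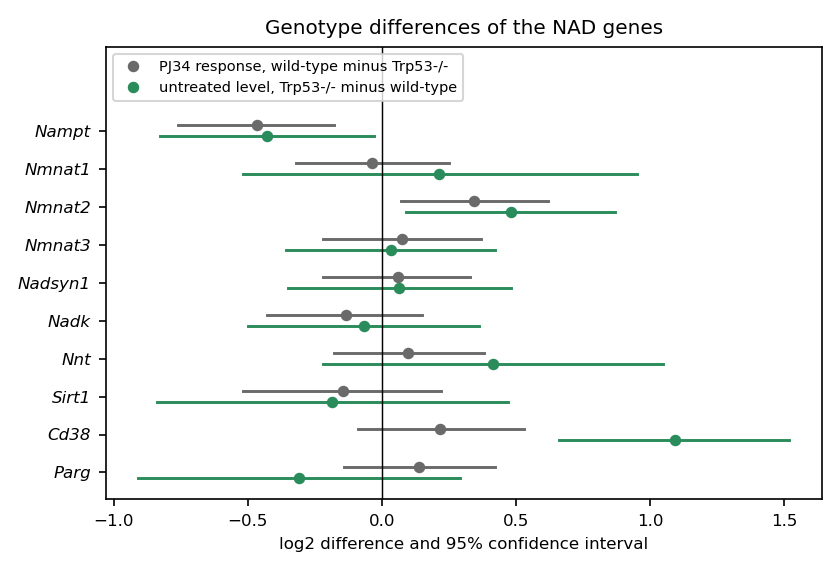
Log2 difference (horizontal axis; points, with 95% confidence intervals as lines) between the genotypes for each of the 10 genes, in the response to PJ34 (grey, wild-type minus *Trp53*-/-) and in the level of untreated cells (green, *Trp53*-/- minus wild-type). *Cd38* in untreated cells lies farthest from 0, at 1.09, and in the response *Nampt* and *Nmnat2* have intervals that leave out 0.

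Untreated *Trp53*-/- cells were compared with untreated wild-type cells through the Cy3 channel of separate arrays, after the arrays had been brought to the same distribution of mean brightness. Each of the 4 arrays had its own slide and scan, and both wild-type arrays were scanned before both *Trp53*-/- arrays, so slide or scan and genotype cannot be told apart here, nor can any difference in genetic background between the litters. *Cd38* was 2.13-fold higher in *Trp53*-/- cells and was the only member to pass, also with the 2-fold criterion. That is 1 of 10 genes higher and 0 lower, where 3.83% of all genes were higher, 3.73% lower and 3.86% past 2-fold in either direction. The median difference was 0.05 over the 10 genes and -0.01 over all genes.

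The *Cd38* level was 6.93 and 6.85 in wild-type and 7.86 and 8.11 in *Trp53*-/-. Both *Trp53*-/- arrays were above both wild-type arrays by more than the spread within either genotype (difference 1.09, 95% confidence interval 0.66 to 1.52; *q* = 0.0232), and 1.72% of all genes had a higher difference. The uncorrected control intensities were 84.3 and 58.2 in wild-type and 152 and 187 in *Trp53*-/-, among the dim values of the array, over local backgrounds of 18 to 24. In the PJ34 channel they were 123 and 124 against 245 and 363, and the normalized levels there were 6.90 and 6.88 against 7.49 and 8.04. Without *Trp53*-/- replicate 1 the difference was 1.22 (*q* = 0.214) and without replicate 2 it was 0.97 (*q* = 0.507), and in either setting no gene of the array passed.

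Of 17 astrocyte, oligodendrocyte and neuronal markers 7 were higher in untreated *Trp53*-/- cells, 0 were lower, and 4 that did not pass had values below 0 (*Aldh1l1*, *Gja1*, *Map2* and *Mog*). Of 5 astrocyte markers 3 passed as higher, and their mean control level was 7.91 and 8.29 in wild-type and 8.96 and 8.95 in *Trp53*-/-. Of 6 oligodendrocyte markers 2 did (9.10 and 9.34 against 10.25 and 10.31), and of 6 neuronal markers 2 did (8.14 and 8.03 against 8.61 and 8.71). Of 6 markers of microglia and macrophages, cells in which *Cd38* is known to be expressed, 2 were measured and 0 passed, with means of 11.25 and 11.48 against 10.76 and 10.49, and *Aif1*, *Cx3cr1*, *C1qa* and *Ptprc* did not pass the filter on dim signals. Of 5 endothelial markers 2 were measured, at 9.83 and 9.82 against 9.14 and 9.03, and *Kdr* passed as lower (-1.34, *q* = 0.0162). The part of such cells in the *Cd38* difference was not tested, and in these bulk cultures fewer cells of a type and less RNA per cell cannot be told apart. The Y-linked *Eif2s3y* had control levels of 8.96 and 8.47 in wild-type and 6.01 and 6.25 in *Trp53*-/-, so the genotypes cannot be told apart from the makeup of the litters or cultures in this comparison.

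**Figure D3:**
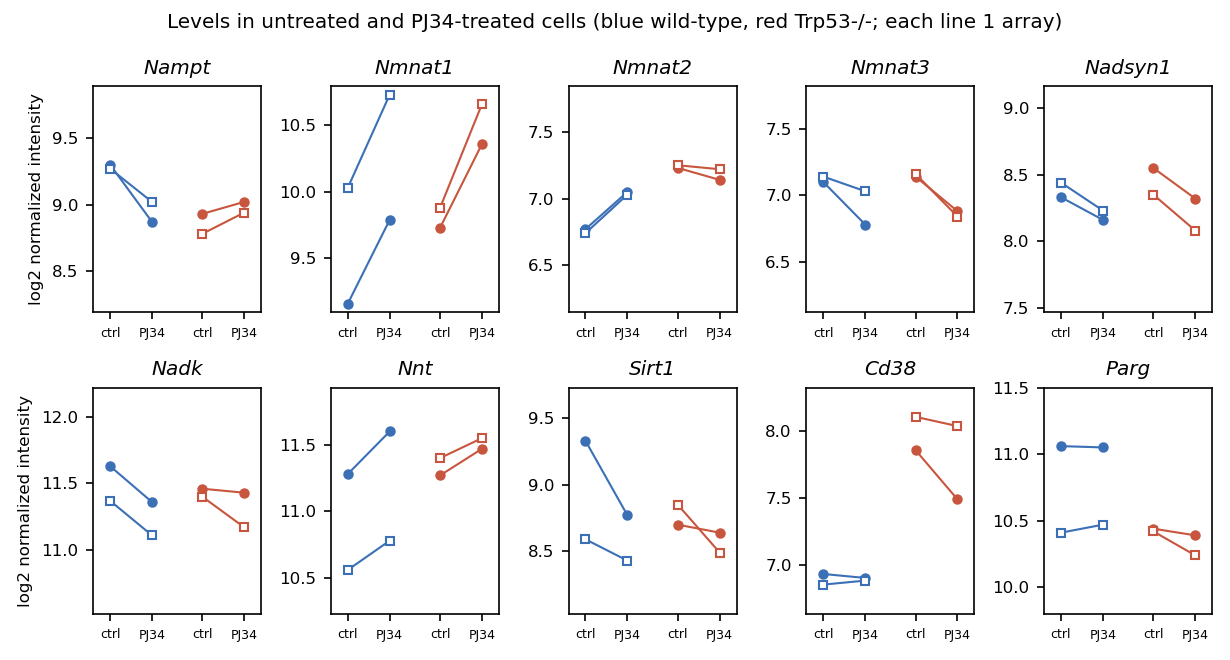
Log2 normalized intensity (vertical axis, each panel spanning the same range) of the 10 genes in untreated (ctrl) and PJ34-treated cells, blue for wild-type and red for *Trp53*-/-, filled circles for replicate 1 and open squares for replicate 2, with a line joining the channels of 1 array. *Cd38* is higher in *Trp53*-/- than in wild-type cells with and without PJ34, and all 4 lines of *Nmnat1* go up; panels show different probes, whose heights are not to be compared.

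The other 9 genes did not pass in untreated cells. *Nmnat2* had levels of 6.77 and 6.74 in wild-type and 7.23 and 7.25 in *Trp53*-/-, and *Nampt* of 9.30 and 9.27 against 8.93 and 8.78. The groups did not overlap for either gene, nor did they for *Cd38* or, before rounding, for *Nmnat3*. How many of all genes separate in this way was not counted. The differences were 0.48 for *Nmnat2* (*q* = 0.0835) and -0.43 for *Nampt* (*q* = 0.108). These levels are the same control channels that enter the ratios of PJ34 over control, so the genotype differences in level and in response of these 2 genes are not separate measurements. *Nmnat3* was at 7.10 and 7.14 in wild-type and 7.14 and 7.16 in *Trp53*-/-, a difference of 0.03 with an interval from -0.36 to 0.42. For *Nmnat1*, *Nnt*, *Sirt1* and *Parg* the 2 wild-type arrays lay farther apart than the genotype means. *Nmnat1* had 9.16 and 10.03 in wild-type, around both *Trp53*-/- values of 9.73 and 9.88, and *Parg* had 11.06 and 10.41 against 10.44 and 10.42. *Nadsyn1* (8.33 and 8.44 against 8.55 and 8.35) and *Nadk* (11.63 and 11.37 against 11.46 and 11.40) overlapped as well.

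The rest of NAD metabolism was described with 39 further genes in lists by role, of which 30 were tested. In wild-type 4 were higher and 7 lower at *q* below 0.05, with a median of 0.00. In *Trp53*-/- 3 were higher and 2 lower, also with a median of 0.00. Among these 3, *Kmo* was kept only through its PJ34 channels, as described below. The shares over all genes given above were 13.7% and 11.4% in wild-type and 12.8% and 10.6% in *Trp53*-/-. None was past 2-fold by PJ34 and 0 passed in the difference, where 3 of the 30 had an unadjusted *p* below 0.05 in limma's test, against 14.5% of all genes.

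Beside *Nampt* in salvage, *Pnp*, of purine nucleoside phosphorylase, which also cleaves nicotinamide riboside, gave -0.72 and -0.71 in wild-type (*q* = 0.000979) and -0.53 and -0.11 in *Trp53*-/- (*q* = 0.0368). *Nt5e*, of the ecto-nucleotidase CD73, gave -0.54 and -0.21 in wild-type (*q* = 0.0195) and -0.22 and -0.44 in *Trp53*-/- (*q* = 0.0313). These 2 fell in both genotypes. Beside *Sirt1*, *Sirt7*, of the nucleolar sirtuin, rose in both, with 0.24 and 0.36 in wild-type (*q* = 0.0226) and 0.29 and 0.41 in *Trp53*-/- (*q* = 0.0136). Of the 6 further sirtuins 2 were higher and 0 lower in wild-type, where 13.7% and 11.4% of all genes were. In *Trp53*-/-, *Pnp* no longer passed without replicate 1 (-0.11, *q* = 0.397), and *Nt5e* and *Sirt7* were lost without either array (without replicate 2 -0.22, *q* = 0.33, and 0.29, *q* = 0.19). In wild-type *Nt5e* was lost without replicate 1 (-0.21, *q* = 0.26) and *Sirt7* without either array (*q* = 0.0654 and 0.19).

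Of the 4 ADP-ribosyl transferases listed as NAD users, *Tnks2*, of tankyrase 2, rose in both genotypes, with 0.49 and 0.59 in wild-type (*q* = 0.00157) and 0.53 and 0.40 in *Trp53*-/- (*q* = 0.00421). *Parp1*, of the main polymerase that PJ34 inhibits, gave -0.20 and -0.60 in wild-type (*q* = 0.0147) and -0.17 and -0.09 in *Trp53*-/- (*q* = 0.223). Of the 8 genes of ADP-ribose removal beside *Parg*, 0 passed in *Trp53*-/-, where 12.8% of all genes were higher and 10.6% lower. In wild-type 2 of the 8 fell, where 11.4% of all genes did. The 2 were *Oard1* (-0.43 and -0.29, *q* = 0.0276) and *Macrod1* (-0.34 and -0.27, *q* = 0.0213), both of hydrolases that take ADP-ribose off proteins. *Parp1* was lost without wild-type replicate 2 (-0.20, *q* = 0.255), *Oard1* without replicate 1 (-0.29, *q* = 0.156), *Macrod1* without either (*q* = 0.16 and 0.0776), and *Tnks2* in *Trp53*-/- without replicate 1 of that genotype (0.40, *q* = 0.0553).

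Of the 9 genes of NAD synthesis from tryptophan 4 were tested. *Kmo*, of kynurenine monooxygenase, is the remaining 1 of the 3 genes counted as higher in *Trp53*-/-. It was well above background in 4 of 8 channels, namely the PJ34 (Cy5) channels of both genotypes, through which alone it passed the filter. Its control level is therefore only bounded, and the PJ34 level in *Trp53*-/- was at least 1.11-fold higher. In this value dye and treatment cannot be told apart. The call in limma's test (*q* = 0.00889) was made on the ratio of 0.39 with dim control values, which was 0.31 without replicate 2. It is not separate from the filter, which kept the probe through its brighter channel. *Haao*, of the dioxygenase that makes quinolinic acid, was chosen here after its values were seen as the only further list gene to pass in untreated cells. Its control levels were 8.19 and 8.05 in wild-type and 7.15 and 7.07 in *Trp53*-/-, a difference of -1.01 (*q* = 0.0235), which no longer passed without *Trp53*-/- replicate 1 (-1.05, *q* = 0.253) or 2 (-0.97, *q* = 0.507). *Cd38* was the only glycohydrolase measured, since *Bst1* and *Sarm1* did not pass the filter on dim signals.

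**Figure D4:**
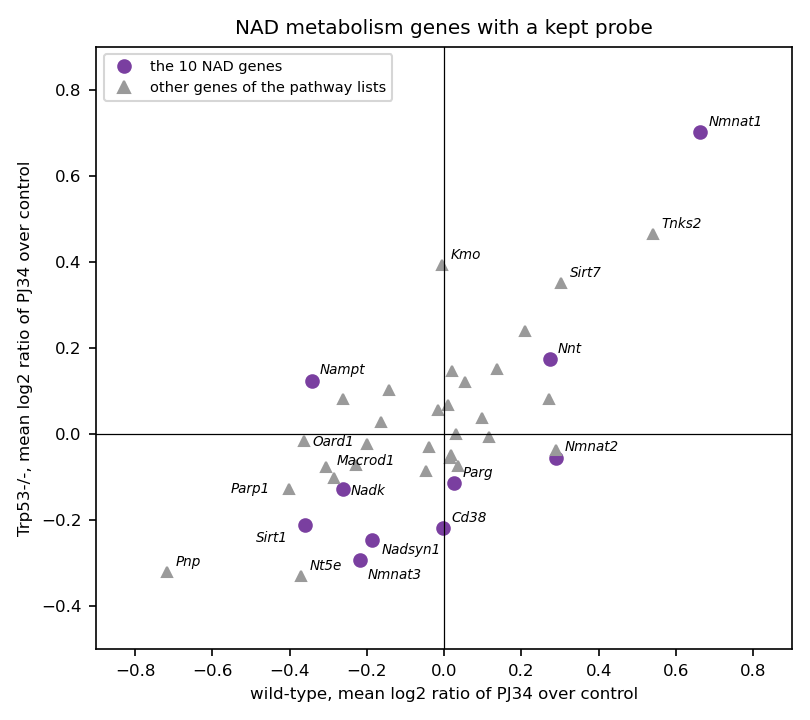
Mean log2 ratio of PJ34 over control in wild-type (horizontal axis) and *Trp53*-/- (vertical axis) for the 10 NAD genes (purple circles) and the 30 further genes of the NAD lists that were tested (grey triangles), with 1 point per gene and names at the 10 genes and most of the further genes described. *Nmnat1*, *Tnks2* and *Sirt7* lie at the upper right, *Pnp* and *Nt5e* at the lower left, and *Nampt* lies left of 0 in wild-type and above 0 in *Trp53*-/-.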

How the data were processed

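Expression was measured on 4 two-colour Agilent SurePrint G3 Mouse GE arrays. The authors read the scans with Feature Extraction 10.7.3.1. The deposited intensity values used here are the mean signal and median local background of each spot in both colours, uncorrected. Its log10 ratios, also deposited and made after background subtraction and dye normalization, served as an alternative after conversion to log2. A table of normalized values was not used, since its 4 value columns are named by number only.

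With limma 3.58.1 in R 4.3.3, background was corrected by normexp (offset 50), ratios were normalized by loess within arrays, control and outlier spots were left out, and spots of a probe were averaged. Probes with at least 1 channel well above background on both arrays of a genotype were kept (27049 of 55681, 48.6%). In a channel, 21515 to 27166 probes stood well above background, no spot was saturated, and the number of arrays limits the precision. RefSeq accessions gave symbols for 27235 probes (48.9%) and the files for the others. The probe with the highest mean intensity stood for a gene.

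A single limma model with 1 mean per genotype covered the 4 arrays and left 2 residual degrees of freedom, which became 10.16 after moderation (6.09 for control levels). The p-values measure only the spread between these samples. Genes were called at *p* and Storey's *q* below 0.05, with and without more than 2-fold, as in the study's criteria. Log2 levels are single channels after loess and Aquantile normalization between arrays. The fit was tested on simulated data with 200 changed genes. At a log2 change of 0.5 it found 178 of them in wild-type and 52 in the difference between genotypes. At a change of 1 it found 200 in the difference and 100 in untreated cells. Genotype differences of these sizes can therefore be missed. All members are named, and of the further list genes, those at *q* below 0.05 in a PJ34 contrast or the difference, at most the 6 largest per contrast. The members and lists were chosen with earlier results of these data known. Each array had its own slide and scan, which therefore could not serve as a block. The closing section gives the effect of other background corrections, normalizations, filters, adjustments, replicate blocks and left-out arrays.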

Additional observations from a re-analysis of the deposited data

How the results depend on the processing

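Of 640 comparisons of a member's value with an alternative setting, 556 kept both direction and side of *q* = 0.05, 16 newly passed, 35 no longer passed and 33 turned direction. Some of the 640 repeat the same fit, where an array of the other genotype was left out.

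Median centring within arrays in place of loess gave 1 member past 2-fold in wild-type and 2 in *Trp53*-/-, with 5 and 7 members higher and 0 and 0 lower at both *p* and *q* below 0.05. The direction turned in wild-type for *Nampt* (0.21), *Nmnat3* (0.024), *Nadsyn1* (0.29), *Nadk* (0.38), *Sirt1* (0.15) and *Cd38* (0.20). It turned in *Trp53*-/- for *Nmnat2* (0.30), *Nadsyn1* (0.38), *Nadk* (0.75), *Sirt1* (0.47), *Cd38* (0.32) and *Parg* (0.71), and in the difference for *Nadsyn1* (-0.089), *Nnt* (-0.16), *Cd38* (-0.12) and *Parg* (-0.07). The median of all genes moved with it, to 0.46, 0.64 and -0.14. Over all genes, 11733 were then higher and 83 lower in wild-type, against 2700 and 2251, and 13404 and 87 in *Trp53*-/-, against 2524 and 2092.

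With log ratios taken from the scanner software, 0 members were lower in either genotype at *q* below 0.05, although the values were no smaller (*Nampt* -0.40, *Sirt1* -0.49 and *Nadk* -0.28 in wild-type, *Nmnat3* -0.65 and *Nadsyn1* -0.32 in *Trp53*-/-), where 1019 of all genes were in wild-type and 625 in *Trp53*-/-. With Benjamini-Hochberg adjustment 1 was lower in wild-type and 0 in *Trp53*-/-. Scaling between arrays and no filter on dim probes each left 1 lower in *Trp53*-/-. Quantile normalization of the control channel alone left 0 past 2-fold in untreated cells, with *Cd38* at 0.96 (*q* = 0.0285).

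Apart from fits with an array left out, directions turned elsewhere only for small values. In wild-type this was *Cd38* without background correction (0.047) and with an offset of 16 (0.003). In the difference it was *Nmnat1* with scaling (0.006). In untreated cells with the software's processed signal it was *Nmnat3* (-0.12), *Nadsyn1* (-0.014) and *Nadk* (0.077). Leaving out 1 array at a time spanned 0 for *Cd38* (from -0.032 to 0.029) and *Parg* (from -0.013 to 0.063) in wild-type. It did so in the difference for *Sirt1* (from -0.348 to 0.053), *Nmnat3* (from -0.031 to 0.18) and *Nmnat1* (from -0.109 to 0.031), and in untreated cells for *Nmnat1* (from -0.228 to 0.65), *Nadk* (from -0.196 to 0.06), *Sirt1* (from -0.558 to 0.183), *Parg* (from -0.635 to 0.017) and *Nadsyn1* (from -0.032 to 0.162).

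Leaving out each array in turn gave from 1 to 3 members higher and from 0 to 3 lower in wild-type, from 0 to 2 lower in *Trp53*-/-, and from 0 to 3 higher, from 0 to 3 lower and from 0 to 1 past 2-fold in untreated cells. Without wild-type replicate 1, 3491 of all genes were higher and 3812 lower in untreated cells, and without replicate 2 4253 and 4558, against 755 and 735. Without either *Trp53*-/- array these counts were 0 and 0, and the cause was not tested.

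The replicate numbers come without a shared litter, batch or day in the labels, and deviations of same-numbered arrays correlated at -0.179 in the ratios and 0.0851 in the control channel. With the replicate number as a block, 1 member was lower in *Trp53*-/-, *Nadk* and *Nnt* no longer passed in wild-type (*q* = 0.0602 and 0.0511) nor *Nadsyn1* in *Trp53*-/- (*q* = 0.0735), and 1292 of all genes were higher and 1656 lower in untreated cells. With the pairing crossed, chosen after seeing the data, 1 member, *Nampt*, passed as lower in the difference.

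Further counts over all genes that moved by more than 1.5 times were these. With the scanner's own ratios, higher genes fell to 1225 in wild-type and 1008 in *Trp53*-/-, 2-fold calls went from 99 and 73 to 559 and 530, and the difference had 0 calls. With Benjamini-Hochberg, higher genes in *Trp53*-/- were 1601, lower genes in the difference 51 (from 94), and untreated calls 337 higher and 254 lower. In the difference (257 higher, 94 lower), lower genes were 43 without background correction and 161 with the replicate block, both counts were 39 and 2 with an offset of 16, 81 and 32 with median centring and 715 and 406 with the crossed pairing. An offset of 16 gave 162, 129 and 41 2-fold calls in wild-type, *Trp53*-/- and the difference (from 99, 73 and 94), and median centring 1164 and 3378 in the genotypes. In untreated cells no filter gave 427 lower, and the processed signal 450 higher and 1413 past 2-fold (from 760). Leaving out an array of the genotype gave 1570 and 1571 higher and 1181 and 1326 lower in wild-type, and 615 and 1147 higher and 687 and 1142 lower in *Trp53*-/-. It gave from 163 to 414 higher and from 26 to 161 lower in the difference, with up to 149, 163 and 159 2-fold calls in wild-type, *Trp53*-/- and the difference, and from 0 to 1539 in untreated cells.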
